A study of Arabidopsis thaliana with 6 samples.

Results

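The heavy-metal domain gene cluster of Arabidopsis thaliana is a group of 6 neighbouring loci on chromosome 5, AT5G52720, AT5G52730, AT5G52740, AT5G52750, AT5G52760 and AT5G52770, which encode proteins with a heavy-metal-associated domain. The loci were selected on measured values, as the neighbours of AT5G52760, whose level was much higher in the ka120 mutant than in the wild type, so their differences between the genotypes are given as a description, without a test. Of the 6 loci, 5 had a probe set assigned to that gene alone, among 13286 genes with such a probe set on the array. AT5G52730 had none and is not analysed here. Each measured locus had 1 probe set. In the order of the TAIR10.1 gene table, no other gene lies between the first and the last of the 6 loci.

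Transcript levels were measured on 1 biotin-labelled expression array per sample, with 3 biological replicates of ka120 and 3 of WT (accession Col-0). KA120 (AT3G08960) encodes a nuclear transport receptor of the importin-beta family, and the ka120 allele is not described further in the labels. All plants were untreated and grew on soil at 22 °C with 12 h of light and 12 h of darkness. The labels name the tissue mature leaf after 4 weeks of growth, whereas the study's design text speaks of whole rosettes at 3 weeks.

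The heavy-metal-associated domain is a small fold that, in its classical form, holds a metal ion such as copper or zinc between a pair of cysteines. It occurs in copper chaperones, which hand copper to target enzymes, in the metal-pumping ATPases of membranes, and in a large plant family of small proteins, many of them carrying a lipid anchor. In rice, proteins with this domain are known as targets of fungal effectors and as susceptibility factors. The domain is assigned here by the locus list alone, since the gene tables carry no protein descriptions and no sequences were at hand.

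AT5G52740, AT5G52750 and AT5G52760, which lie next to each other in the middle of the cluster, were far higher in ka120 than in WT, by 2.41 to 3.62 on the log2 scale. AT5G52720 and AT5G52770, at the edges of the cluster, were dim in both genotypes and differed by 0.21 and 0.10. Among its measured loci the cluster thus held a high-difference block of 3 genes and an edge gene on each side whose genotypes overlapped. AT5G52730, between AT5G52720 and AT5G52740, was not analysed, so the extent of the block on that side is unknown.

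AT5G52760 had levels of 7.42, 7.19 and 7.02 on the ka120 arrays, against 4.01, 3.53 and 3.23 on the WT arrays (log2). The genotypes did not overlap, and a gap of 3.02 separated the lowest ka120 array from the highest WT array. The means were 7.21 ± 0.20 in ka120 and 3.59 ± 0.39 in WT (log2, SD, n = 3 arrays each), a difference of 3.62. This difference ranked 32 among the 22746 probe sets, counted from the most raised. WT replicate 1 was the highest of the WT arrays, and without it the difference was 3.83.

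AT5G52750 had levels of 6.79, 7.07 and 6.99 on the ka120 arrays, against 3.99, 3.66 and 3.75 on the WT arrays (log2). The separation was again complete, with a gap of 2.81 between the nearest arrays of the genotypes. Its means were 6.95 ± 0.14 in ka120 and 3.80 ± 0.17 in WT (log2, SD, n = 3 each), and the difference of 3.15 ranked 55.

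AT5G52740 had levels of 5.35, 5.43 and 5.39 on the ka120 arrays, against 2.92, 3.11 and 2.92 on the WT arrays (log2). Its replicates lay closest together among the 3 raised genes, with SDs of 0.04 in ka120 and 0.11 in WT, around means of 5.39 and 2.98. The difference of 2.41 ranked 125, and the gap between the nearest arrays was 2.24.

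**Figure D1:**
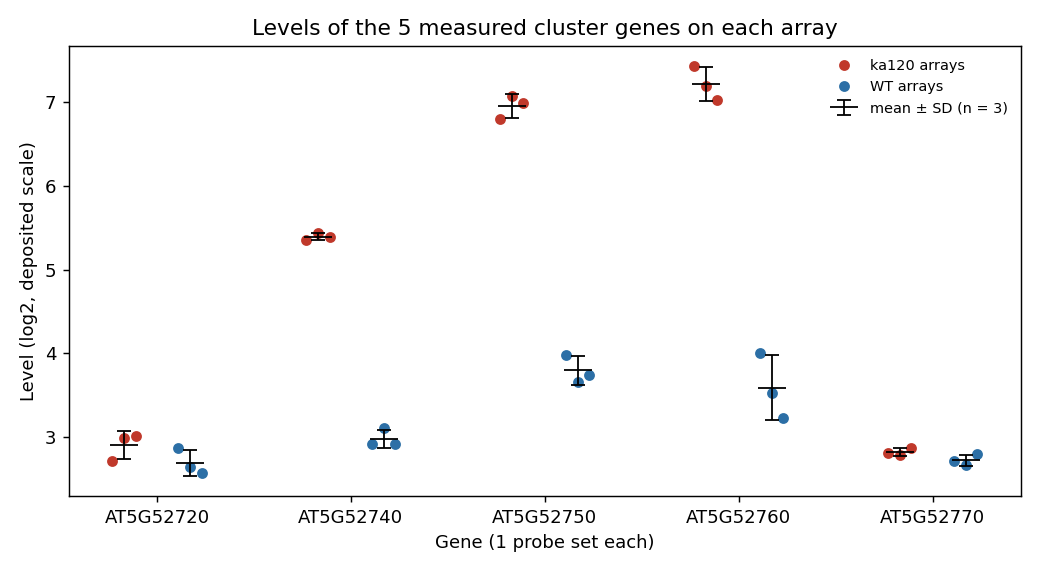
Level of each measured cluster gene (log2, vertical axis) on the 3 ka120 arrays (red) and the 3 WT arrays (blue), with the mean and SD in black. AT5G52740, AT5G52750 and AT5G52760 show gaps of 2.24 to 3.02 between the genotypes, while the points of AT5G52720 and AT5G52770 overlap; heights are not comparable between genes, since each probe set has its own response.

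AT5G52720 had levels of 2.71, 2.996 and 3.02 on the ka120 arrays, against 2.87, 2.65 and 2.57 on the WT arrays (log2). The highest WT array lay above the lowest ka120 array, so the genotypes overlapped. Means were 2.91 ± 0.17 in ka120 and 2.70 ± 0.15 in WT (log2, SD, n = 3 each). AT5G52770 had levels of 2.81, 2.79 and 2.88 on the ka120 arrays, against 2.71, 2.67 and 2.80 on the WT arrays (log2). Here the overlap was slight, the highest WT array exceeding the lowest ka120 array by under the SD of either genotype. Both genes were among the dimmest on the array, at percentiles 12.3 and 9.15 of all probe sets in ka120, and 3.99 and 4.75 in WT. With no detection call in the table, neither was shown to exceed background in either genotype, and the small differences do not show that these genes stayed the same.

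Counted over the measured loci, 3 of 5 had all 3 ka120 arrays above all 3 WT arrays, beside 23.8% of all probe sets tested. The same 3 differed by more than 1 on the log2 scale, beside 3.85% of all probe sets. The choice of loci used this contrast, so nothing is read from these counts. The median difference was 2.41 over the 5 loci and -0.02 over all probe sets.

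The 3 raised genes were dim in WT as well. Their WT means lay at percentile 33.8 for AT5G52760, 38.0 for AT5G52750 and 13.6 for AT5G52740, and their ka120 means at percentiles 81.6, 78.5 and 57.5. The table gives no background level against which the WT values could be judged, and no fold is therefore stated for them. In tissue RNA, more cells that express a gene and more RNA per cell cannot be told apart.

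The arrays themselves differed slightly between genotypes. The hybridization control BioB, a transcript added in a known amount, averaged 7.28 in ka120 and 7.72 in WT (log2), which is -0.44 for ka120 minus WT. Scaling each array on its own median shifted the median difference of all probe sets to -0.15, on the hybridization controls to 0.21 and on BioB alone to 0.42. Under these 3 scalings and quantile normalization AT5G52740 stayed between 2.28 and 2.85, AT5G52750 between 3.03 and 3.59, and AT5G52760 between 3.50 and 4.06 (log2 differences). AT5G52770 gave -0.026 after median centring and 0.54 on BioB, and AT5G52720 gave 0.09 and 0.65. Each centring moves every probe set by the same amount, so all 5 loci shifted alike. The size of the small differences at the edges of the cluster therefore depends on the scaling. AT5G52770 changed sign after median centring, whereas AT5G52720 stayed positive under each scaling. On the hybridization controls 4 loci, and on BioB alone all 5, had their ka120 arrays above their WT arrays. Relative to the median of all probe sets, with the values as deposited, the differences were 3.64 for AT5G52760, 3.18 for AT5G52750, 2.43 for AT5G52740, 0.23 for AT5G52720 and 0.12 for AT5G52770.

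**Figure D2:**
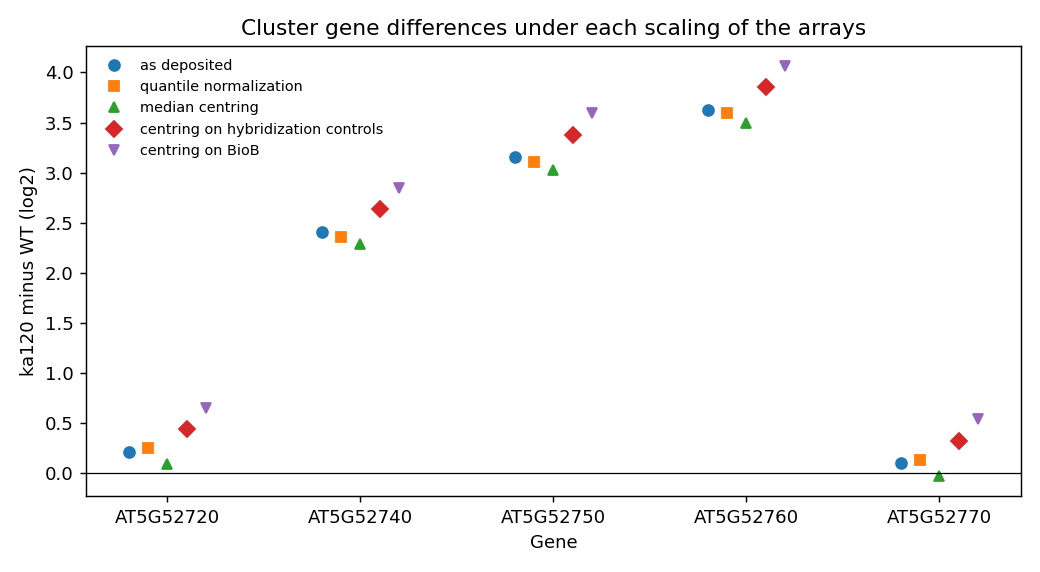
Difference between ka120 and WT (ka120 minus WT, log2) for the 5 cluster genes with the values as deposited and under 4 other scalings of the arrays (symbols). Each centring moves all 5 genes by the same amount; the 3 raised genes lie at 2.28 and above, and AT5G52720 and AT5G52770 between -0.026 and 0.65.

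Across the array, 35.9% of the 22746 probe sets passed an adjusted p of 0.05 in a limma fit with Benjamini-Hochberg adjustment, 19.4% as higher and 16.5% as lower in ka120. This broad change is the background for every count of calls given here. Arrays of 1 genotype correlated across probe sets at r of at least 0.993 and arrays of different genotypes at 0.961 to 0.965, values that describe the arrays only. The KA120 probe set averaged 3.98 ± 0.29 in ka120 and 4.44 ± 0.11 in WT (log2, SD, n = 3 each), at percentiles 40.4 and 47.4 of all probe sets. Its difference was -0.45 (limma adjusted p = 0.0222). The call as lower held in 10 of 14 alternatives. It was lost on the hybridization controls (-0.23) and on BioB alone (-0.02), among others. The probe set is thus a weak check of the genotype. Leaf markers were bright: the 6 measured of 10 listed photosynthesis genes lay at percentiles 88.2 and above in ka120 and 96.3 and above in WT. Their levels ran from 7.86 to 13.04 in ka120 and from 9.40 to 13.13 in WT (log2 means), and 5 of the 6 fell. LHCB4.3, an antenna protein of photosystem II, fell by 1.54, PSAN, a photosystem I subunit, fell by 0.82, and LHCB4.2 fell by 0.68 (log2, adjusted p between 4.67e-06 and 0.000135, limma). The photosynthesis list was chosen with earlier results of these data known, so its falls are not an independent result. The 2 measured of 8 root markers were dim and did not pass the test, at 3.25 and 3.79 in ka120 and 3.55 and 3.81 in WT, with EXPA18 at a difference of -0.31. The 2 measured of 5 guard cell and phloem markers, both of the stomatal lineage, lay at 4.58 and 4.64 in ka120 and 4.80 and 4.68 in WT without passing, SPCH with a difference of -0.22, and the senescence marker SAG29, the 1 measured of 4, fell by 0.71 (adjusted p = 0.00541, limma). On BioB alone the calls of SAG29 (-0.28, adjusted p = 0.0798) and LHCB4.2 (-0.24, adjusted p = 0.0968) were lost, and EXPA18 passed as lower in 3 of 13 alternatives. None of the 5 flower markers had a single-gene probe set. The part of tissue composition in the cluster's difference was not tested.

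The genes on either side of the cluster had not been chosen for their values and were tested in the same fit. Of the 10 nearest measured genes, 5 on each side, 2 rose and 0 fell at an adjusted p of 0.05 (limma), beside 35.9% of all probe sets called. Both lay on the higher-numbered side and not next to the cluster: AT5G52810 and AT5G52820 are the fifth and seventh genes beyond AT5G52770.

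AT5G52810 had levels of 6.18, 6.10 and 6.42 on the ka120 arrays, against 5.16, 4.84 and 4.89 on the WT arrays (log2). All ka120 arrays were above all WT arrays, and the difference was 1.27 (SE 0.12, limma adjusted p = 1.18e-05). AT5G52820, also called NOTCHLESS, a protein of ribosome assembly, had 7.87, 7.83 and 7.71 in ka120, against 7.11, 7.01 and 7.19 in WT (log2). It too was separated by genotype, with a difference of 0.70 (SE 0.09, limma adjusted p = 0.000148).

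The genes directly outside the listed loci did not pass. Whether any flanking gene also encodes a heavy-metal-associated domain was not checked. The edges of the cluster are therefore those of the locus list. AT5G52710, the nearest on the lower-numbered side, averaged 3.23 ± 0.19 in ka120 and 3.29 ± 0.18 in WT, and AT5G52780, the nearest on the other side, 6.30 ± 0.07 in ka120 and 6.62 ± 0.24 in WT (log2, SD, n = 3 each). Their differences were -0.05 and -0.32 (limma adjusted p = 0.799 and 0.063). The AT5G52780 value passed as lower in 6 of the 14 alternatives, among them quantile normalization (-0.39, adjusted p = 0.0293). The remaining 6 flanking genes gave -0.24 for AT5G52660, -0.28 for AT5G52670, -0.02 for AT5G52680, -0.06 for AT5G52690, -0.28 for AT5G52790 and -0.12 for AT5G52800, with adjusted p between 0.0519 and 0.889 (limma). AT5G52660 passed as lower in 3 of 14 alternatives, AT5G52670 in 2 of 13 and AT5G52790 in 1 of 13. The dimmest of them, AT5G52680 and AT5G52690, lay at percentiles 5.28 and 3.41 in ka120 and 4.76 and 4.16 in WT, as low as the edge genes of the cluster. On BioB alone 6 flanking genes passed as higher, and after median centring 4 passed as lower, so only the rises of AT5G52810 and AT5G52820 had the same call under all 14 alternatives.

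**Figure D3:**
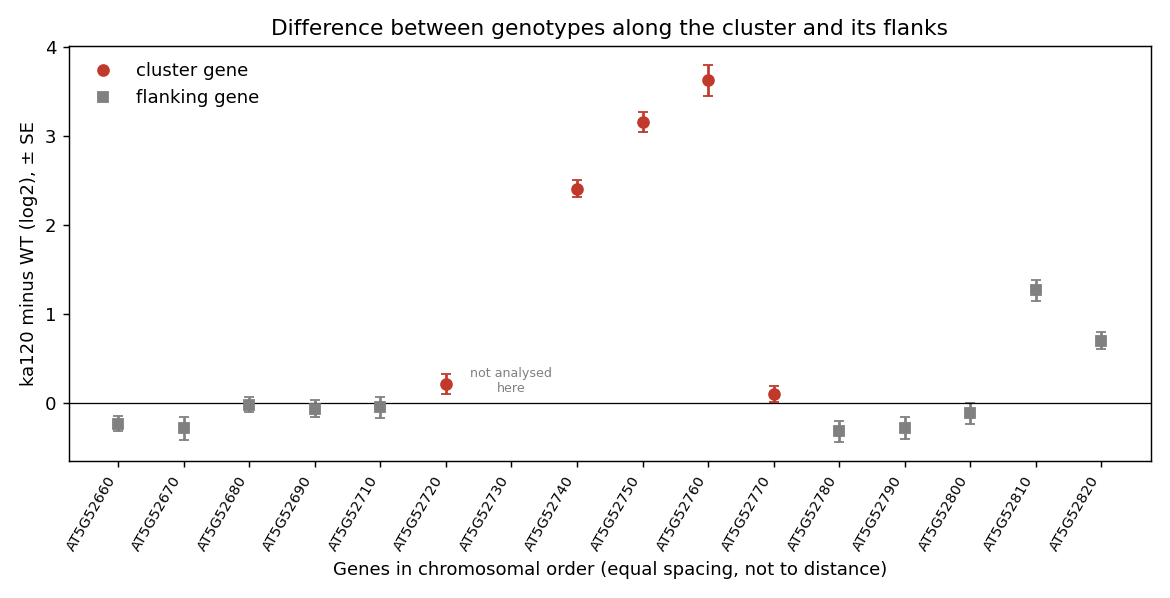
Difference between the genotypes (ka120 minus WT, log2, with SE from the limma fit) for the cluster genes (red circles) and the 5 nearest measured genes on each side (grey squares), in chromosomal order with equal spacing. The block AT5G52740 to AT5G52760 stands at 2.41 to 3.62, while the genes up to AT5G52800 on the right and AT5G52660 on the left lie between -0.32 and 0.21.

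Other genes listed for a heavy-metal-associated domain were examined to see whether they differed in the same way. The list of 46 loci outside the cluster came from general knowledge and could not be checked against a domain annotation. It may lack members of the family, and it did not include the flanking genes. Of the 46, 24 had a single-gene probe set. Of these 24, 4 rose and 5 fell, or 37.5%, close to the 35.9% of all probe sets called. Their median difference was -0.09, against -0.02 over all probe sets, and single genes ran from -0.93 to 0.95 (log2).

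AT5G60800 rose most in this list, with 7.19, 7.41 and 7.36 on the ka120 arrays, against 6.48, 6.48 and 6.14 on the WT arrays (log2). Its genotypes were separated, and the difference was 0.95 (SE 0.12, limma adjusted p = 7.61e-05). AT2G36950 fell most, with 6.72, 6.65 and 6.92 in ka120, against 7.63, 7.80 and 7.67 in WT (log2). Its difference was -0.93 (SE 0.10, limma adjusted p = 3.78e-05). AT3G06130 had 6.15, 6.16 and 5.80 in ka120, against 6.86, 6.68 and 6.59 in WT (log2), and fell by 0.67 (SE 0.12, limma adjusted p = 0.0011), a call lost on BioB alone (-0.24, adjusted p = 0.111). The other 6 called genes differed by at most 0.54 in size. The split of calls followed the scaling, with 2 higher and 10 lower after median centring, 9 and 2 on the hybridization controls, and 14 and 1 on BioB alone. AT5G60800 was called higher and AT2G36950 lower under all 14 alternatives.

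**Figure D4:**
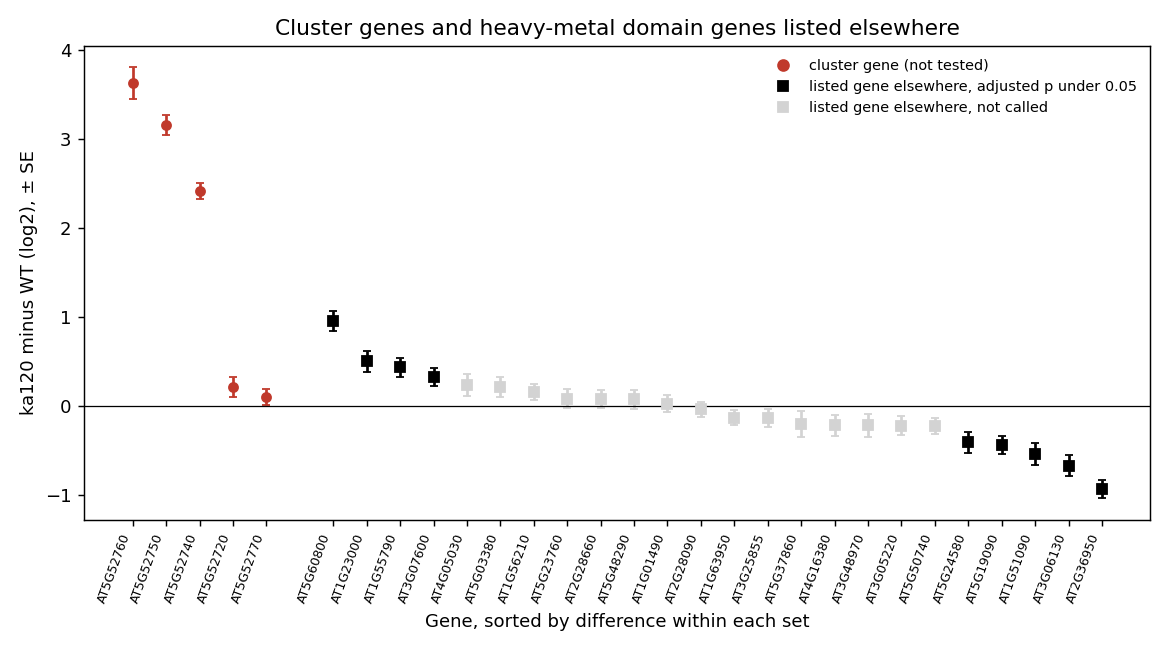
Difference between the genotypes (ka120 minus WT, log2, with SE) for the 5 cluster genes (red, not tested) and the 24 measured genes of the wider list (black where the limma adjusted p was under 0.05, grey otherwise), sorted within each set. The wider list runs from -0.93 to 0.95, and 3 cluster genes lie at 2.41 and above.

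Genes of copper and metal handling were sparsely covered. Of 11 copper and zinc pumps and copper chaperones only CCS was measured. CCS, the chaperone that loads copper into superoxide dismutase and itself carries a heavy-metal-associated domain, had 6.96, 6.91 and 7.07 on the ka120 arrays, against 5.73, 6.13 and 6.14 on the WT arrays (log2). The genotypes did not overlap, and CCS rose by 0.98 (SE 0.12, limma adjusted p = 8.76e-05), under every alternative tried.

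Of 65 genes of metal uptake, storage and chelation 5 were measured. Of these 0 rose and 2 fell, or 40%, near the 35.9% of all probe sets called. Their median difference was -0.18. MTP11, a manganese transporter, had 8.07, 8.02 and 7.96 in ka120, against 8.69, 8.77 and 8.69 in WT (log2), and fell by 0.70 (SE 0.09, limma adjusted p = 8.67e-05). That call was lost on BioB alone (-0.26, adjusted p = 0.0716). ZIP9, of the ZIP family of metal importers, had 3.11, 3.49 and 3.15 in ka120, against 3.51, 3.54 and 3.81 in WT (log2), and fell by 0.37 (SE 0.13, limma adjusted p = 0.0393). The ZIP9 call held in 7 of 13 alternatives. Leaving out ka120 replicate 1 (-0.30), ka120 replicate 3 (-0.32), WT replicate 2 (-0.41) or WT replicate 3 (-0.27) lost it. The adjusted p was then between 0.0579 and 0.154 (limma). It was also lost on the hybridization controls (-0.14, limma adjusted p = 0.372), and on BioB the ZIP9 value was 0.068. ZIP6 and NRAMP5, metal transporters, gave -0.18 and -0.16, and MT1C, a metallothionein, gave 0.01, without passing.

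The genes most like AT5G52760 were sought by the root mean square distance between profiles over the 6 arrays, each gene taken relative to its own WT mean. Among 13281 genes outside the cluster the nearest were AT5G59670 at 0.14, AT4G00700 at 0.19, AT1G10340 at 0.22, AT3G28540 at 0.22 and AT1G43910 at 0.24 (log2 units). They were picked for values close to those of AT5G52760 on each of these 6 arrays, so their differences of 3.65, 3.77, 3.49, 3.89 and 3.46 are given without a test. AT5G59670, the closest, had 7.48, 7.42 and 7.54 on the ka120 arrays, against 4.17, 3.78 and 3.54 on the WT arrays (log2). The order of their WT arrays was part of the choice and is not read as a result.

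Within the cluster, AT5G52750 was nearest to AT5G52760, at a distance of 0.41, with 9 outside genes nearer. AT5G52740 followed at 0.90, with 32 outside genes nearer. AT5G52750 also had its highest WT level in replicate 1, whereas AT5G52740 had it in replicate 2. In ka120, AT5G52760 was highest in replicate 1 and AT5G52750 and AT5G52740 in replicate 2. AT5G52720 and AT5G52770 were farther, at 2.42 and 2.51, with 2881 and 4110 outside genes nearer. The distance takes in the size of the difference between the genotypes, and the loci were chosen on that contrast. Their order by distance was the same as by difference, so it is a description and not a separate result.

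**Figure D5:**
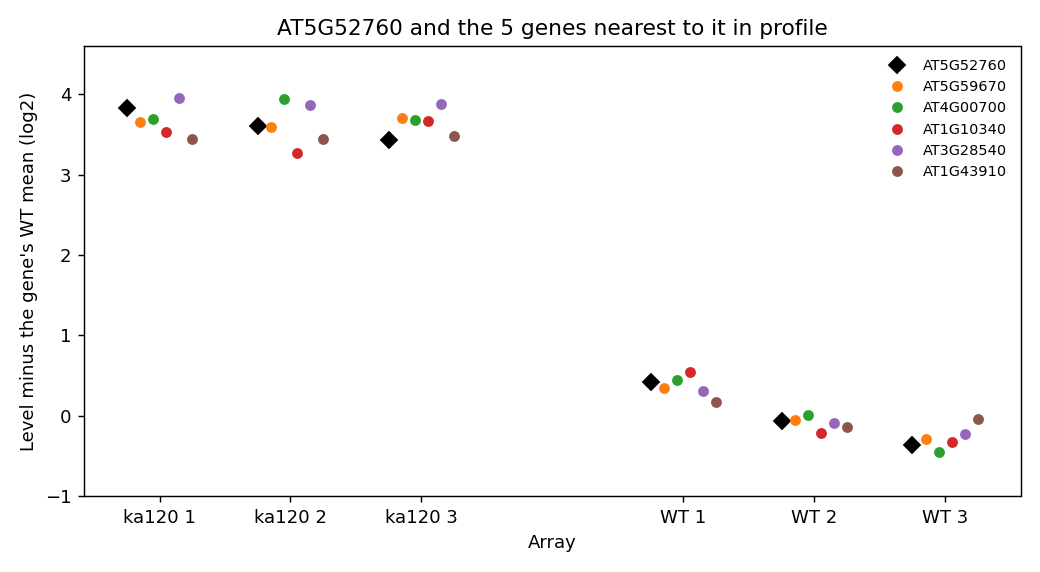
Level of AT5G52760 (black diamonds) and of the 5 genes nearest to it in profile (coloured circles) on each array, minus the gene's own WT mean (log2, vertical axis). The genes were chosen for closeness on these same arrays, so the likeness is a description; their distances from AT5G52760 run from 0.14 to 0.24.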

How the data were processed

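The table deposited by the authors holds a log2 level for each probe set. Per the submitters' processing notes the affy package was used; how background, normalization and probe summary were handled is not given in the sources. Of 22810 probe sets 64 array controls were left out. Of the 22746 tested, 13513 were assigned to 1 gene by the platform annotation (13436 matched to TAIR10.1 through gene identifiers), 503 to several and 8730 to none. Where a gene had several probe sets, the brightest stood for it. The log2 values were fitted with limma 3.58.1 (R 4.3.3) by lmFit and eBayes without a block or a filter on dim probe sets, with Benjamini-Hochberg adjustment over all 22746 and a threshold of 0.05; the fit was tested on simulated data. The number of arrays limits the precision. The cluster and the lists were chosen with earlier results of these data known. Named were each measured cluster gene, KA120, 5 flanking genes per side, the 3 largest called differences in each list (the largest where none was called) and the 5 nearest profiles; ZIP6, NRAMP5 and MT1C were named after their values were seen. Alternatives were quantile normalization, 3 other scalings, omission of the dimmest 40%, an intensity trend with robust prior, array weights, a replicate block and each array left out.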

Additional observations from a re-analysis of the deposited data

How the results depend on the processing

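The differences of AT5G52740, AT5G52750 and AT5G52760 were positive in all 14 alternatives, between 2.28 and 2.85, 3.03 and 3.59, and 3.44 and 4.06 (log2). Omission of the dimmest 40%, the intensity trend and the replicate block leave a difference as it was, so they are no check of its size or sign. That omission used the mean over all arrays, which the high ka120 levels of these genes raise. AT5G52720 was positive in the 13 that kept it (0.09 to 0.65) and AT5G52770 in 12 of 13, with -0.026 after median centring. Cluster genes separated upward numbered 3, or 4 on the hybridization controls, 5 on BioB, and 3 to 4 with 1 array left out. Counts over all probe sets (4405 higher, 3760 lower) gave 6235 lower after median centring, 7971 higher and 1955 lower on the hybridization controls, and 15835 and 1203 on BioB, which follow from the added offsets. In the wider heavy-metal list the counts (4 higher, 5 lower) became 2 and 10, 9 and 2, and 14 and 1 under these 3 scalings, and 1 higher without the dimmest 40%, where fewer genes were tested. Lower metal uptake genes (2) numbered 3 under quantile normalization and after median centring, 1 on the hybridization controls and without the dimmest 40%, 0 on BioB (with 1 higher), and 1 to 2 with 1 array left out. Flanking genes called lower (0) numbered 2 under quantile normalization, 4 after median centring, 2 without the dimmest 40%, 1 with array weights and 0 to 1 with 1 array left out; 6 were called higher on BioB. There the offset shared by all probe sets turned the sign of all 8 flanking genes not called before, to 0.42 for AT5G52680, 0.37 for AT5G52690, 0.39 for AT5G52710 and 0.32 for AT5G52800, which passed as higher, and to 0.12 to 0.20 for the other 4, which did not, as well as of ZIP9 (0.068), EXPA18 (0.13) and SPCH (0.22).

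For ka120 and WT arrays of the same number, the deviations from the genotype means had correlations of -0.01, -0.19 and 0.13. Other pairs ran from -0.28 to 0.26, a range that holds all of these values. So few correlations cannot show whether arrays of the same number shared a batch, and the labels do not say so. With the replicate block 1 flanking gene, AT5G52780, was called lower (adjusted p = 0.0409, limma) and EXPA18 also passed. The planned search for similar proteins was not run, as no protein sequences were at hand, and signal over background is unknown for the dim probe sets.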

Other observations

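The table order of genes allowed a count of neighbouring genes that were raised together; the thresholds were chosen after the values were seen, and the cluster was itself chosen on this contrast. Among 13217 genes of the 5 nuclear chromosomes with a single-gene probe set, 67 had a log2 difference above 2, and 1 run of at least 3 neighbours among the measured genes exceeded that value, namely AT5G52740, AT5G52750 and AT5G52760. At a difference above 1, reached by 426 genes, there were 2 such runs. The other was AT5G45480, AT5G45500 and AT5G45510, also on chromosome 5, with differences of 1.06, 1.42 and 1.45. Genes without a single-gene probe set were skipped in this count.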
